A study of Mus musculus with 12 samples.

Results

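The respiratory chain and the ATP synthase are built from nuclear genes and a few mitochondrial ones, and the nuclear genes of complexes I to V were followed here in sorted blood progenitors. The genes were taken by symbol: Nduf genes of the a, b, c, s and v series followed by a number, the Sdh genes a to d, and all genes whose symbol begins with Uqcr, with Cox4 to Cox8 or with Atp5. Of 23383 genes joined over the count files, 84 met this rule, and all 84 were listed in every file. They are 37 genes of complex I, 4 of complex II, 8 of complex III, 18 of complex IV and 17 of complex V. The complex was assigned from the symbol. Subunits encoded in mitochondrial DNA were not analysed here.

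Complex I (NADH dehydrogenase) and complex II (succinate dehydrogenase, which is also an enzyme of the tricarboxylic acid cycle) pass electrons to ubiquinone, complex III passes them on to cytochrome c, and complex IV (cytochrome c oxidase) passes them to oxygen. Complexes I, III and IV pump protons, and complex V, the ATP synthase, makes ATP as the protons flow back. Blood stem cells are known for relying less on respiration than the dividing progenitors they give rise to.

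RNA came from bone marrow of C57BL/6 mice of 2 genotypes, labelled Cebpa +42kb enhancer -/- (here enhancer-null) and Cebpa +42kb enhancer WT (here wild type). The deleted enhancer is named for its distance of 42 kb from Cebpa, which encodes C/EBPalpha, a regulator that commits progenitors to the granulocyte and monocyte lines. From each genotype 2 bone marrow gates were sorted: CMP, the common myeloid progenitors, and LSK, the lineage-negative, Sca-1-positive and Kit-positive gate that holds the stem cells and that the labels also call hematopoietic stem cells. This gave 4 groups of 3 libraries, which are named by the number in their label: 1, 2 and 7 in the enhancer-null and 1, 6 and 8 in the wild-type groups. Age and treatment are not given in the labels, nor is it said whether each library came from a separate animal, so that p-values measure the spread between these libraries.

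Gene counts ran from 6170491 to 49149674 per library. Reads of Cebpa itself numbered 0, 3 and 0 in the enhancer-null CMP libraries against 544, 270 and 463 in the wild type, and 1, 0 and 15 in the enhancer-null LSK libraries against 226, 118 and 39 in the wild type. Ly6a, the gene of the Sca-1 antigen, stood at 134 to 196 CPM (counts scaled to a fixed library total, here by TMM, edgeR's trimmed-mean scaling) over the 6 LSK libraries and at no more than 12.9 CPM in CMP. Mpo, the myeloperoxidase gene, is in the list of CMP markers. It ranged over 307 to 443 CPM in wild-type LSK and 1200 to 2285 in enhancer-null LSK. In CMP it ranged over 2374 to 3264 CPM in the enhancer-null and 4130.3 to 4847 in the wild-type libraries. The summed late neutrophil markers (11 of 12 listed) were uneven: 2241, 280.4 and 26.5 CPM in wild-type CMP libraries 1, 6 and 8, and 4.07 to 27.9 CPM in enhancer-null CMP. In LSK they came to 1435, 279 and 143 CPM in wild-type libraries 1, 6 and 8, against 7.44 to 26.7 CPM in enhancer-null libraries.

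The promoters of 3 members are shown because they show how the members differ in known motifs of factors that bind promoters of respiratory genes. Over the window searched, Cox6a1 and Uqcr11 hold matches to the motifs of NRF1 and of the ETS factor GABPA, and Atp5b, the member with the smallest p between LSK and CMP in the wild type, holds neither. The stretches are RefSeq promoter sequence (build GRCm38.p6) before the start of the transcript, written 5′ to 3′ on the gene's strand and limited to bases outside every exon of the GENCODE annotation. Capitals mark bases within a motif match on either strand. In Cox6a1 the run of 10 capitals holds 1 match on each strand, which overlap. The ETS match of Cox6a1 and the NRF1 match of Uqcr11 lie outside the stretches shown.
Cox6a1 promoter (chr5:115348982-115349129, minus strand): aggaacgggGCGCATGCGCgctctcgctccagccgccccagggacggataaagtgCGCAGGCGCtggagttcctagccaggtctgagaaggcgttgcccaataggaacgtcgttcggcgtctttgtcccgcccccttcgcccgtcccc
Uqcr11 promoter (chr10:80406831-80407071, minus strand): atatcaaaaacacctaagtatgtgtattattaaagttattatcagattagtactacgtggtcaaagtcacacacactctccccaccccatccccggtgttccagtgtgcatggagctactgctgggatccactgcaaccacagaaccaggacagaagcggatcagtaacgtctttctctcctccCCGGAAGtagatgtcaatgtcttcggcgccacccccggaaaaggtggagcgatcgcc
Atp5b promoter (chr10:128083057-128083272, plus strand): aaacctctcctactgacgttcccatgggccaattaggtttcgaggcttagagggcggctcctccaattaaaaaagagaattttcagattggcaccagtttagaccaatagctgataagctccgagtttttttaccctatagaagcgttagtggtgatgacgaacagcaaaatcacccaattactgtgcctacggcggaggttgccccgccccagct

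A promoter entry (250 bases before to 50 after the start) was matched for 69 of the 84 members. The NRF1 motif GCGCNTGCG was found on either strand in 22 of the 69 (31.9%), against 6.31% of all 32851 promoters of that length and 14.3% of the 9506 promoters matched to genes tested here. The ETS motif CCGGAAG was found in 15 (21.7%, against 8.86% of all and 18.6% of tested genes' promoters), and the YY1 motif AAGATGG in 11 (15.9%, against 6.34% and 7.45%). At least 1 of the 3 motifs was present in 40 of the 69 promoters, and NRF1 and ETS together in 6. By complex, NRF1 matches fell on 9 of 32 promoters of complex I, 2 of 3 of complex II, 3 of 5 of complex III, 1 of 13 of complex IV and 7 of 16 of complex V. Of the 8 members that rose between wild-type LSK and CMP, Cox6a1 held NRF1 and ETS matches, Sdhb an ETS match, and the remaining members with an entry among them held none. A match describes letters in this window and says nothing on binding.

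The members were well transcribed in every group. Summed over the 84 genes, they took 1.53% to 1.77% of a library's counts in wild-type CMP, 1.18% to 1.33% in enhancer-null CMP, 1.12% to 1.15% in wild-type LSK and 1.07% to 1.11% in enhancer-null LSK. On the CPM scale the sums were 11089, 11558 and 10979 in wild-type LSK libraries 1, 6 and 8, and 10427, 10781 and 10778 in enhancer-null LSK libraries 1, 2 and 7. They were 18159, 15117 and 15693 for the wild-type and 12291, 13194 and 12753 for the enhancer-null CMP libraries. The 4 groups did not overlap in this sum, nor with RLE scaling or library size alone: wild-type CMP was highest, then enhancer-null CMP, wild-type LSK and enhancer-null LSK. In bulk RNA of a gate, fewer cells of a type and less RNA per cell cannot be told apart.

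**Figure D1:**
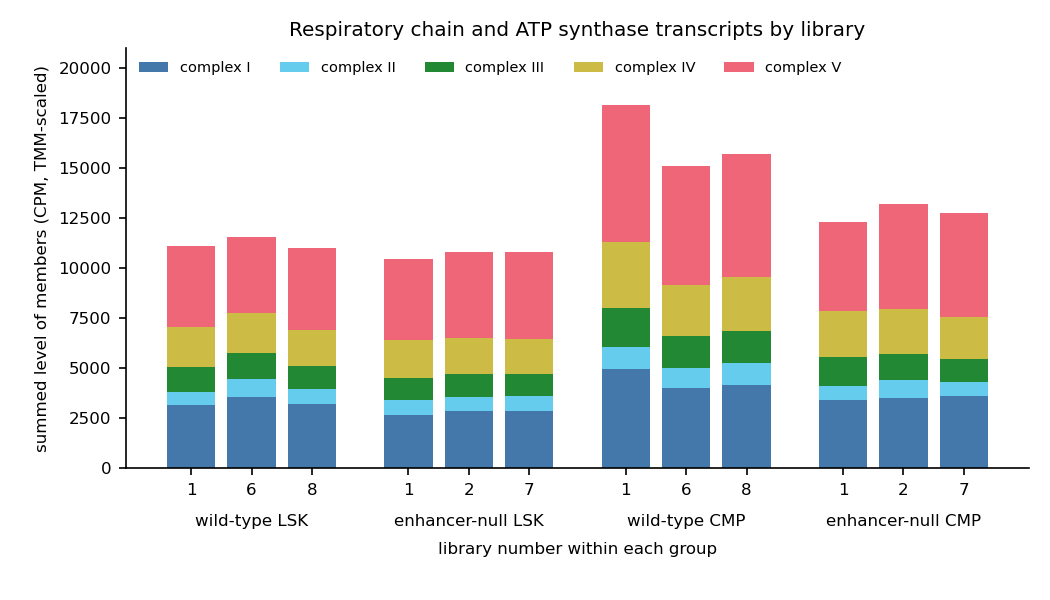
Summed level of the 84 members in each of the 12 libraries (CPM, TMM-scaled), as bars stacked by complex, with libraries grouped by cell type and genotype. The wild-type CMP libraries reach 15117 to 18159 CPM, and every enhancer-null LSK library lies below every wild-type LSK library by a small margin (10427 to 10781 against 10979 to 11558).

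Levels of different genes were compared as CPM per kb of exon. The length joins all annotated exons of a gene, used in these cells or not, so that the order of genes depends on the annotation. The highest of all members was Cox6a1, a small subunit of complex IV, at a mean of 807 CPM per kb in wild-type CMP and 422 in wild-type LSK. Next came Atp5a1 and Atp5b, the alpha and beta subunits that form the catalytic head of the ATP synthase (group means of 233 to 389 and 227 to 389 CPM per kb), then Cox4i1 and Cox8a of complex IV (237 to 353 and 207 to 349.5). Atp5c1, the gamma subunit that turns within the head, stood at 173 to 269 CPM per kb. In complex I the leading genes per kb were Ndufa4 (125 to 227), Ndufc2 (121 to 212) and Ndufb11 (109 to 164). The Ndufa4 protein carries a complex I name but is known today as a component of complex IV. Complex III was led by the Rieske iron-sulfur protein gene Uqcrfs1 (124 to 218 CPM per kb), Uqcr10 (115 to 218) and Uqcrb (132 to 177). In complex II the membrane anchor gene Sdhd (127 to 197 CPM per kb) stood above the flavoprotein gene Sdha (82.1 to 121) and the iron-sulfur protein gene Sdhb (53.2 to 98.7). Before division by exon length (1231 and 4126 bases), Sdhd was at 156 to 243 and Sdha at 339 to 499 CPM, the reverse order.

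Several subunits have copies used in other tissues, and the common copy prevailed in each of these pairs. Cox4i1 stood at 237 to 353 CPM per kb over the groups, against 0.785 to 1.76 for Cox4i2, its copy known from lung. Cox6a1 (355 to 807) exceeded the heart and muscle form Cox6a2 (3.14 to 10.6). Cox6b1 (135 to 216) exceeded Cox6b2, known from testis (12.8 to 27.7), and Cox7a2 (63.6 to 115) the muscle form Cox7a1 (0.230 to 0.953). Cox8a stood at 207 to 349.5 CPM per kb. The muscle form Cox8b was counted 1 time in enhancer-null CMP library 2 and 2 times in wild-type CMP library 1 and not elsewhere, and Cox8c was at 0 counts in all 12 libraries, where 3 counts correspond to 0.0610 to 0.486 CPM. Cox7b2 had 5 counts and Ndufa4l2 1 count, all in wild-type CMP library 1, while Cox7b stood at 55.9 to 79.9 CPM per kb. Together with Cox7a1 (0 to 0.911 CPM), these genes were too low to be tested, so that 79 of 84 members passed the filter on low counts in 4 of the 5 comparisons and 78 in enhancer-null against wild-type LSK, where Ndufs5 was left out as well. Ndufs5 was counted 0 to 55 times per library (0 to 1.86 CPM). Of its stretches of 75 bases, the read length, 15.7% also lie in BC002163, so that its low value is uncertain.

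All 3 genes of the c ring, the rotor of the ATP synthase, were transcribed: Atp5g2 at 139 to 183 CPM per kb, Atp5g3 at 56.9 to 101 and Atp5g1 at 25.2 to 56.7. Before division by exon length (1675, 2181 and 4912 bases), their group means were 233 to 307, 124 to 220 and 124 to 279 CPM. The order of Atp5g3 and Atp5g1 thus rests on the annotated length. Of the Atp5g2 stretches of read length 35.8% are shared with other genes, as are 27.7% of those of Atp5o, 25.6% of Ndufa13 and 27.8% of Ndufb6, so that the levels of these genes are less certain. Ndufb4, a membrane arm subunit of complex I, stood at 23.1 to 38.0 CPM per kb. Atp5sl and its relative Atp5s carry an ATP synthase name, although the Atp5sl protein is known to act in the assembly of complex I. Both were low and uneven (Atp5s 0.116 to 54.6 CPM, Atp5sl 13 to 47.4 CPM over the 12 libraries).

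The step from LSK to CMP in the wild type was the comparison in which members passed the test. Of 79 tested members, 8 rose in CMP and 0 fell, while 4.2% of the 12027 genes tested were called, 2.15% higher and 2.05% lower. The 8 belong to complexes I (2 genes), II (1), IV (2) and V (3), with no complex III gene among them. The log2 fold change was positive for 70 members and negative for 9 (49.7% and 50.3% of all genes), with a median of 0.56 against −0.01 over all genes tested. At an unadjusted p under 0.05, 40 members were higher and 0 lower (10.4% and 10.1% of all genes). The libraries of the groups did not overlap for 46 members that were higher (58.2%, against 16.4% of all genes) and for 1 that was lower (1.27%, against 17% of all genes).

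Atp5b had levels of 1637, 1667 and 1637 CPM in wild-type CMP libraries 1, 6 and 8 and at 873, 992 and 1022 CPM in wild-type LSK libraries 1, 6 and 8. The CMP libraries lay close together and all above LSK (log2 fold change 0.82, SE 0.10, edgeR adjusted p = 0.0110). Its partner Atp5a1 stood at 1257, 1231 and 1171 CPM in CMP and 776, 737 and 679.8 CPM in LSK, again without overlap (log2 fold change 0.78, SE 0.11, edgeR adjusted p = 0.0128). Both genes had a small spread in CMP. The c ring gene Atp5g1 stood at 303, 270.1 and 262 CPM in CMP and 109, 141 and 149 CPM in LSK, where no library reached the lowest CMP library (log2 fold change 1.10, SE 0.19, edgeR adjusted p = 0.0232).

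In complex IV, Cox6a1 stood at 630.4, 516 and 552 CPM in CMP and 332, 265 and 291 CPM in LSK (log2 fold change 0.98, SE 0.15, edgeR adjusted p = 0.0182). Every CMP library was above every LSK library. Cox5a, a subunit on the matrix side of complex IV, stood at 478, 327 and 401 CPM in CMP and 232, 189.8 and 202 CPM in LSK (log2 fold change 1.0, SE 0.18, edgeR adjusted p = 0.0307). Its CMP libraries were further apart than those of Atp5b. In complex II, Sdhb stood at 228, 212 and 223 CPM in CMP and 115, 95.9 and 146 CPM in LSK (log2 fold change 0.93, SE 0.20, edgeR adjusted p = 0.0484).

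In complex I, Ndufv1, the flavoprotein subunit that takes up electrons from NADH, had the largest fold change of the 8. It stood at 202, 208 and 243 CPM in CMP and 111, 56.3 and 102 CPM in LSK, where library 6 was lowest (log2 fold change 1.32, SE 0.27, edgeR adjusted p = 0.0432). Ndufa10, an accessory subunit, stood at 197, 186 and 169 CPM in CMP and 98.2, 87.7 and 118 CPM in LSK (log2 fold change 0.90, SE 0.19, edgeR adjusted p = 0.0460).

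**Figure D2:**
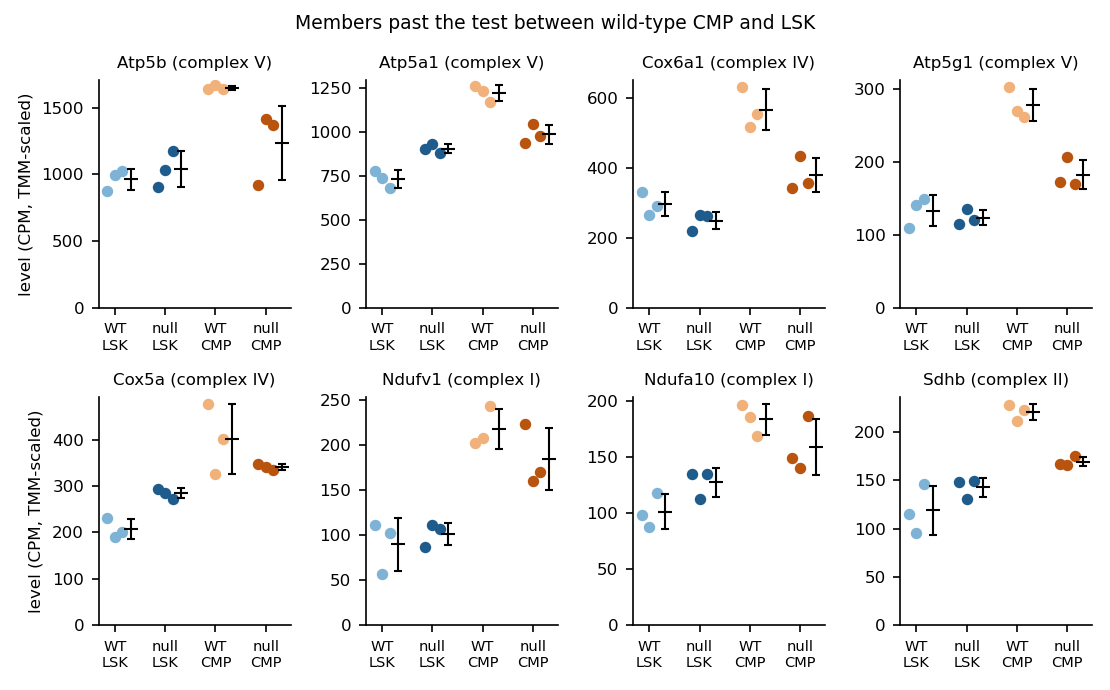
Levels (CPM, TMM-scaled, linear axes from 0) of the 8 members that passed the test between wild-type CMP and LSK, with 1 point per library in each of the 4 groups and the mean ± SD (n = 3) in black beside them. In each panel the 3 wild-type CMP points lie above the 3 wild-type LSK points, and the enhancer-null CMP mean lies below the wild-type CMP mean.

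Complex III had no call by edgeR, with values in the same direction. DESeq2 called its genes Uqcrc1, Uqcrq and Uqcr11 higher (DESeq2 adjusted p = 0.00738, 0.0307 and 0.0497). All 8 tested members of complex III had a positive log2 fold change (median 0.53), and 4 did not overlap. The core protein gene Uqcrc1 stood at 578, 582 and 438 CPM in CMP and 348, 173 and 327 CPM in LSK (log2 fold change 0.96, SE 0.27, edgeR adjusted p = 0.102), with LSK library 6 low. Uqcrfs1 was at 297 ± 27.2 against 221 ± 34.9 CPM (SD, n = 3, edgeR adjusted p = 0.190). Of the other core subunits, the log2 fold change was 0.72 for Ndufs1, the largest subunit of complex I (edgeR adjusted p = 0.210), 0.44 for Cox4i1 (0.239) and 0.37 for Sdha (0.383). For Sdhc and Sdhd, the membrane anchors of complex II, it was 0.19 and 0.68 (edgeR adjusted p = 0.724 and 0.0834).

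By complex, the median log2 fold change was 0.50 in complex I, 0.52 in II, 0.53 in III, 0.64 in IV and 0.66 in V, and 14 of the 17 complex V genes were higher in CMP without overlap. The highest fold changes were those of Cox6a2 (1.51, SE 1.19), Ndufv1, Atp5g1 and Atp5k (1.09, SE 0.46), a small membrane subunit of complex V. The first and the last of these did not pass (edgeR adjusted p = 0.540 and 0.232). The lowest were those of Cox4i2 (−1.11), Atp5s (−0.88), Atp5sl (−0.48) and Cox7a2l (−0.27), at edgeR adjusted p of 0.437 to 0.740. Cox7a2l, known for a role in supercomplexes rather than as a plain subunit, was the 1 member lower in CMP without overlap. Its levels were 212, 186 and 212 CPM, against 301, 219 and 239.7 CPM in LSK.

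The other members are given by complex. In complex I, 31 of 36 tested genes had a positive log2 fold change, from −0.24 for Ndufs4 to the 1.32 of Ndufv1, and 18 were higher without overlap. In complex IV, 12 of 14 were positive and 8 higher without overlap, and in complex II all 4 were positive and 2 did not overlap. Complex V had 15 of 17 positive genes, with Atp5s and Atp5sl as the others, and Atp5o had the next highest fold change below those named (1.07, edgeR adjusted p = 0.0667).

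The 8 calls rested on these 3 libraries a group. Leaving out wild-type CMP library 1, 6 or 8 gave 1, 0 and 0 member calls, among 101, 66 and 54 genes called in the same fits, where all 6 libraries gave 505. Leaving out wild-type LSK library 1, 6 or 8 gave 3, 13 and 1, among 166, 880 and 176 genes. Leaving out both wild-type libraries numbered 1, which hold the most late neutrophil transcripts, an alternative chosen after seeing the data, gave 0 member calls among 32 genes called, with a member median of 0.38. All 8 members kept a positive log2 fold change in each of the 14 alternatives run. DESeq2 called 22 members higher, among 1609 genes called.

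Among genes around the chain, 3 mitochondrial lists also had genes called higher. Of 8 tested subunits and carriers whose symbols the rule does not take, 3 rose in wild-type CMP: Atpif1, the inhibitor of ATP hydrolysis by complex V (log2 fold change 1.09, edgeR adjusted p = 0.0142), the electron carrier cytochrome c, Cycs (1.28, 0.0336), and the complex III subunit cytochrome c1, Cyc1 (1.17, 0.0320). Of 22 carrier, pore and import genes 4 rose: the chaperonin gene Hspd1 (1.01), the ADP/ATP carrier gene Slc25a5 (0.79), Phb2 (0.90) and the import pore gene Tomm40 (1.28), at edgeR adjusted p of 0.0125 to 0.0450. Of 18 genes of the tricarboxylic acid cycle and pyruvate dehydrogenase 4 rose, among them Idh3a (1.0), Dlst (1.07) and Mdh2 (0.94), at edgeR adjusted p of 0.0246 to 0.0399. Of 14 complex I assembly factors and 34 factors of complexes II to V 0 were called in edgeR's test, with 2 and 2 higher at an unadjusted p under 0.05. Their smallest adjusted p were 0.115 for Ndufaf4 (log2 fold change 0.79) and 0.0992 for Cox11 (1.65). No list had a member called lower. Genes of the G2 phase and mitosis moved too: 7 of 20 rose (median 1.13), among them Ccna2 (1.39), Mki67 (1.09) and Plk1 (1.81). Of the cell type markers, erythroid ones (13 of 14 listed) summed to 4486 to 5197 CPM in wild-type CMP against 1412 to 1693 in wild-type LSK, and monocyte and macrophage ones to 926 to 995 against 30.0 to 62.9 CPM. The part of these in the members' rise was not tested.

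The same step in the enhancer-null animals went in the same direction and passed no test. Of 79 tested members 0 were called in edgeR's test, as were 0 (0%) of the 11266 genes tested. At an unadjusted p under 0.05, 6 members were higher and 0 lower (3.91% and 3.02% of all genes). DESeq2 called 205 genes, 0 members among them. The log2 fold change was positive for 67 members and negative for 12 (49.4% and 50.6% of all genes; median 0.26, against −0.01 over all genes), and 34 were higher in CMP without overlap (43.0%, against 8.4% of all genes). The sum over members was 1.46 times higher in CMP than in LSK in the wild type and 1.20 times higher in the enhancer-null groups. Erythroid markers summed to 3049 to 6682 CPM in enhancer-null CMP against 762 to 1172 CPM in enhancer-null LSK. Mast cell and basophil markers summed to 1407 to 1780.1 against 315 to 667 CPM, of which Cpa3 alone held 908 to 1350 against 298 to 577 CPM. In the G2 and mitosis list 10 of 20 genes were higher at an unadjusted p under 0.05 (median 0.86) and 0 were called by edgeR. The part of these in the members' values was not tested.

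Ndufv1 had the smallest p of the members, with 223, 159.6 and 170.2 CPM in enhancer-null CMP and 87.0, 111 and 106 CPM in enhancer-null LSK (log2 fold change 0.84, SE 0.23, edgeR adjusted p = 0.445). Cox6a1 stood at 344, 435 and 358 against 220.2, 264 and 263 CPM (log2 fold change 0.58, SE 0.17, edgeR adjusted p = 0.512). Both groups were apart in each of these genes. The highest fold changes were those of Cox6b2 (1.0), Ndufv1 and Ndufa1 (0.65), and the lowest those of Cox4i2 (−0.61), Cox7a2l (−0.22), Cox6a2 (−0.17) and Sdha (−0.13), with edgeR adjusted p of 0.445 to 0.996. Cox6a2 changed sign in some fits that left out 1 library. Across the steps of both genotypes, which share no library, 26 of 79 members were higher in CMP without overlap in each (433 of 12684 genes in all), and 0 went opposite ways (83 of all genes).

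**Figure D3:**
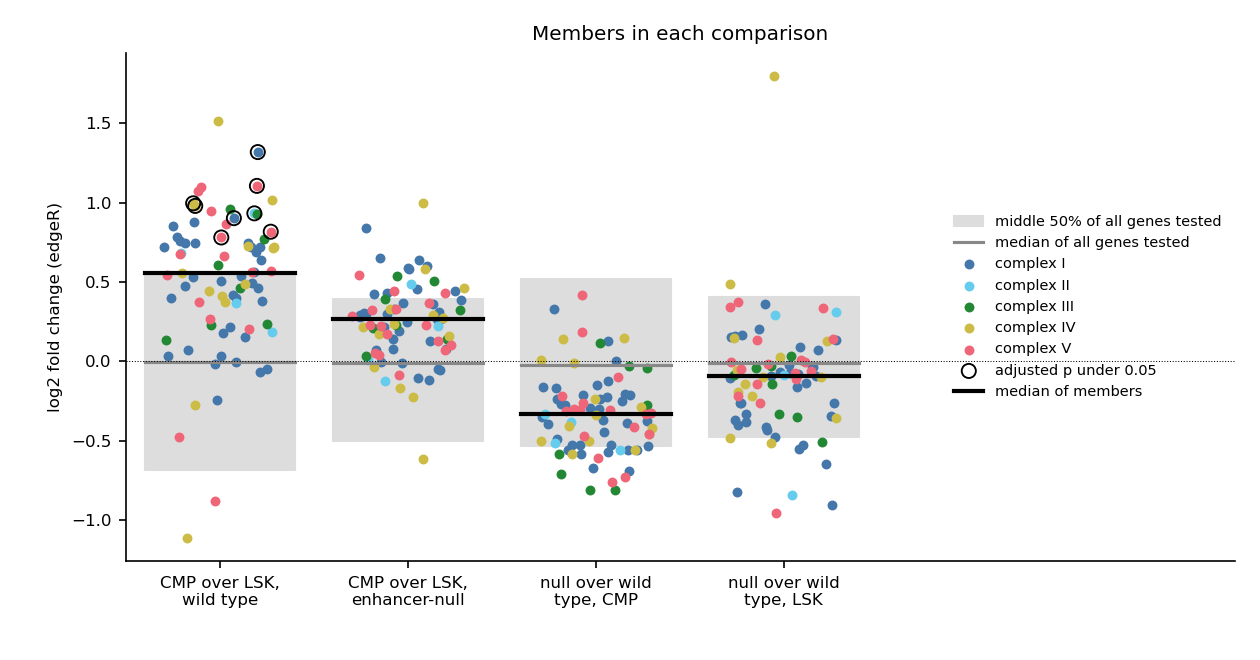
Log2 fold change (edgeR) of each tested member in the 4 comparisons between 2 groups, coloured by complex, with the median of members in black, the median and middle 50% of all genes tested in grey, and circles around members with an adjusted p under 0.05. The 8 circled points are all in the wild-type step from LSK to CMP, and the member medians are 0.56, 0.26, −0.33 and −0.09 from left to right.

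Enhancer-null CMP held less of most member transcripts than wild-type CMP, with no member past the test. Of 79 tested members 0 were called by edgeR (0.589% of 11722 genes were called, 0.478% higher and 0.111% lower). At an unadjusted p under 0.05, 23 members were lower and 0 higher (5.07% and 7.54% of all genes). DESeq2 called 4 members lower, namely Uqcrc1, Cox6a1, Atp5g1 and Atp5o (629 genes in all). The log2 fold change was negative for 70 members and positive for 9 (51.2% and 48.8% of all genes), with a median of −0.33 against −0.02 over all genes. For 32 members (40.5%, against 12.6% of all genes) every enhancer-null library was below every wild-type library, and for 0 it was the reverse (11.1% of all genes).

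Uqcrc1 had the lowest fold change and the smallest p. Its levels were 265, 347 and 298 CPM in enhancer-null CMP libraries 1, 2 and 7, against 578, 582 and 438 CPM in wild-type CMP libraries 1, 6 and 8 (log2 fold change −0.81, SE 0.18, edgeR adjusted p = 0.110). The groups were far apart. Without a filter on low counts its edgeR adjusted p was 0.0294. Cox6a1, named after its values were seen, stood at 344, 435 and 358 against 630.4, 516 and 552 CPM (log2 fold change −0.58, SE 0.15, edgeR adjusted p = 0.184), and Atp5g1, likewise, at 172, 206 and 170.3 against 303, 270.1 and 262 CPM (log2 fold change −0.61, SE 0.17, edgeR adjusted p = 0.210). Neither gene had overlapping groups.

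The next lowest fold changes were those of Uqcrq, a small subunit of complex III (−0.81, edgeR adjusted p = 0.328), of Atp5o, a subunit of the stalk that holds the head of the ATP synthase (−0.76, 0.227), and of Atp5k (−0.73, 0.651). Uqcrq stood at 36.5, 61.3 and 50.7 CPM against 99.5, 72.5 and 88.9 in the wild type. At the other end were Atp5sl (0.42), Ndufa6 (0.33), an accessory subunit of complex I, Atp5s (0.18) and Cox6a2 (0.15), at edgeR adjusted p of 0.656 to 0.982. Ndufa6 overlapped between the groups (181, 154 and 218 against 177, 119.9 and 141 CPM). The sign for Atp5s and Cox6a2 turned in 2 and 3 of 12 alternatives.

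By complex, the median was −0.33 in complex I, −0.45 in II, −0.43 in III, −0.37 in IV and −0.31 in V. All 4 genes of complex II were lower without overlap. Sdha stood at 288, 439.8 and 288 against 466, 469 and 560.4 CPM, with enhancer-null library 2 nearest the wild type, and Sdhb at 167, 166 and 175 against 228, 212 and 223 CPM. For complex II the edgeR adjusted p was 0.320 for Sdha, 0.379 for Sdhb, 0.479 for Sdhc and 0.574 for Sdhd. The head subunits of the ATP synthase lay on either side of the median of all members (−0.33). Atp5a1 stood at 936, 1042 and 976 against 1257, 1231 and 1171 CPM (log2 fold change −0.31, SE 0.10, edgeR adjusted p = 0.279), and Atp5b at 919.8, 1418 and 1369 against 1637, 1667 and 1637 CPM, where enhancer-null library 1 was far below the others (log2 fold change −0.42, SE 0.17, edgeR adjusted p = 0.371). The log2 fold change was −0.30 for Ndufs1, −0.24 for Ndufv1, −0.28 for Uqcrfs1, −0.34 for Cox4i1 and −0.24 for Cox5a.

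This comparison and the wild-type step share the wild-type CMP libraries, so that a high library there enters both. Library 1 of wild-type CMP had the highest member levels (median deviation from a gene's mean over the 12 libraries 0.59 on the log2 scale, against 0.25 and 0.30 in libraries 6 and 8) and the most late neutrophil transcripts. Without it the median of members in the genotype comparison was −0.25 and 0 members were called. G2 and mitosis genes were lower beside the members: 15 of 20 were lower in enhancer-null CMP without overlap (median −0.84) and 0 were called, with Cdk1 at an edgeR adjusted p of 0.0795 (log2 fold change −1.02) and 12 lower at an unadjusted p under 0.05. Of the genes averaging 10 CPM or more, 3.57%, 0.0544% and 1.55% lacked any read in enhancer-null CMP libraries 1, 2 and 7, against 0.0218%, 0.0218% and 0.882% in wild-type CMP libraries 1, 6 and 8. Without enhancer-null library 1 the median of members was −0.40. Marker transcripts in the gate differed too. Summed mast cell and basophil markers (8 of 8 listed) came to 1407 to 1780.1 CPM in the enhancer-null libraries, against 43.3 to 237 CPM in the wild type, and summed monocyte and macrophage markers (8 of 8) to 41.3 to 189 against 926 to 995 CPM. The listed CMP markers (Kit, Cd34, Mpo, Fcgr3, Fcgr2b, Ctsg, Elane and Prtn3) summed to 3355 to 4546 against 5893 to 7015 CPM. The part of these in the members' lower level was not tested.

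Beside the members, 0 genes of the other mitochondrial lists were called in CMP by edgeR. Of 8 further subunits and carriers 1 was lower at an unadjusted p under 0.05, of 22 carrier, pore and import genes 8, and of 18 genes of the tricarboxylic acid cycle 1. Cyc1 stood at 104, 198 and 166 CPM in enhancer-null and 280.5, 246 and 297 CPM in wild-type CMP (log2 fold change −0.82, edgeR adjusted p = 0.253). The smallest adjusted p in the other lists were 0.171 for Tomm40 (−0.99), 0.348 for Dlst (−0.76), 0.621 for the assembly factor Foxred1 (−0.76) and 0.544 for Cox11 (−0.89).

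In LSK the summed level of the enhancer-null libraries was 0.951 times that of the wild type (0.781 times in CMP), with some members lower and others higher. Of 78 tested members 0 were called by edgeR (0.103% of 11619 genes were called, 0.0775% higher and 0.0258% lower). At an unadjusted p under 0.05, 2 were higher and 3 lower (4.05% and 3.86% of all genes), and DESeq2 called 1, Ndufa4, lower (268 genes in all). The median log2 fold change was −0.09 against −0.01 over all genes, with 56 members negative and 22 positive (50.7% and 49.3% of all genes). Without overlap, 17 members were lower in the enhancer-null libraries (21.8%, against 10.6% of all genes) and 5 higher (6.41%, against 8.49%).

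Ndufa4 had the smallest p. Its levels were 166, 179.9 and 173 CPM in enhancer-null LSK libraries 1, 2 and 7, against 306, 349 and 285 CPM in wild-type LSK libraries 1, 6 and 8 (log2 fold change −0.82, SE 0.15, edgeR adjusted p = 0.139). The enhancer-null libraries lay close together and below every wild-type library by a wide margin. Ndufa5, an accessory subunit of complex I, stood at 23.6, 24.3 and 25.4 against 40.2, 51.3 and 49.0 CPM (log2 fold change −0.90, SE 0.33, edgeR adjusted p = 0.569). The anchor gene Sdhc stood at 42.7, 42.4 and 64.8 against 75.5, 111 and 88.7 CPM (log2 fold change −0.84, SE 0.29, edgeR adjusted p = 0.528). In each of these genes the groups were apart, while Atp5s, with the lowest fold change (−0.96, edgeR adjusted p = 0.856), overlapped.

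The highest fold changes included genes of complexes IV and V. Cox5a stood at 295, 286 and 273 CPM in enhancer-null and 232, 189.8 and 202 CPM in wild-type LSK (log2 fold change 0.49, SE 0.15, edgeR adjusted p = 0.442). Atp5a1, named for LSK after its values were seen, stood at 899, 929.8 and 877 against 776, 737 and 679.8 CPM (log2 fold change 0.34, SE 0.10, edgeR adjusted p = 0.406). All enhancer-null libraries exceeded all wild-type libraries in both genes. Beside them were Atp5f1 of the stalk (0.38, edgeR adjusted p = 0.667), Ndufa10 (0.36, 0.710) and the low Cox6a2 (1.80, SE 1.25, 0.770). The 5 members higher without overlap were Atp5a1, Atp5c1, Atp5f1, Cox5a and Cox6a2.

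The balance of summed counts between complexes I and V differed between the genotypes in LSK. Complex I genes took 25.6% to 26.5% of the members' counts in the enhancer-null libraries, against 28.3% to 30.8% in the wild-type ones, and complex V genes 38.5% to 40.3% against 33.0% to 37.1%. Counts of complex V over those of complex I came to 1.51, 1.52 and 1.52 in enhancer-null LSK libraries 1, 2 and 7 and to 1.28, 1.07 and 1.27 in wild-type LSK libraries 1, 6 and 8. No library crossed over. In CMP the same ratio overlapped between the genotypes, at 1.30, 1.51 and 1.46 for the enhancer-null against 1.39, 1.49 and 1.48 for the wild type. Summed CPM of complex I were 2785 ± 104 in enhancer-null and 3305 ± 225 in wild-type LSK (SD, n = 3), and those of complex V 4220.0 ± 182 and 3975 ± 138. Of the 17 complex V genes 11 had a negative log2 fold change (median −0.02), so that most did not share the higher sum. Higher without overlap were 3 of them, with Atp5a1 at a mean of 902 against 731 CPM. Of 35 tested complex I genes 27 were negative (median −0.14). Ndufa4, placed in complex I by its symbol, stood at a mean of 173 against 313 CPM. Wild-type LSK library 6, which had the lowest ratio, lacked any read for 1.83% of the genes averaging 10 CPM or more, where the other LSK libraries lacked 0% to 0.719%. The listed LSK markers summed to 2540 to 2925 CPM in the enhancer-null against 3874 to 4466 CPM in the wild-type libraries. The listed CMP markers summed to 2999 to 4079 against 2321 to 2674 CPM. Mast cell and basophil markers summed to 315 to 667 against 6.77 to 13.6 CPM, of which Cpa3 alone held 298 to 577 against 4.89 to 13.3 CPM. Erythroid markers summed to 762 to 1172 against 1412 to 1693 CPM, megakaryocyte markers (8 of 8) to 174 to 217 against 299 to 415 CPM, and T and NK cell markers (10 of 10) to 362 to 408 against 157 to 224 CPM. Of the G2 and mitosis genes 17 of 20 had a negative log2 fold change (median −0.43), and 0 were called by edgeR, with 5 lower at an unadjusted p under 0.05. The part of these in the balance was not tested.

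**Figure D4:**
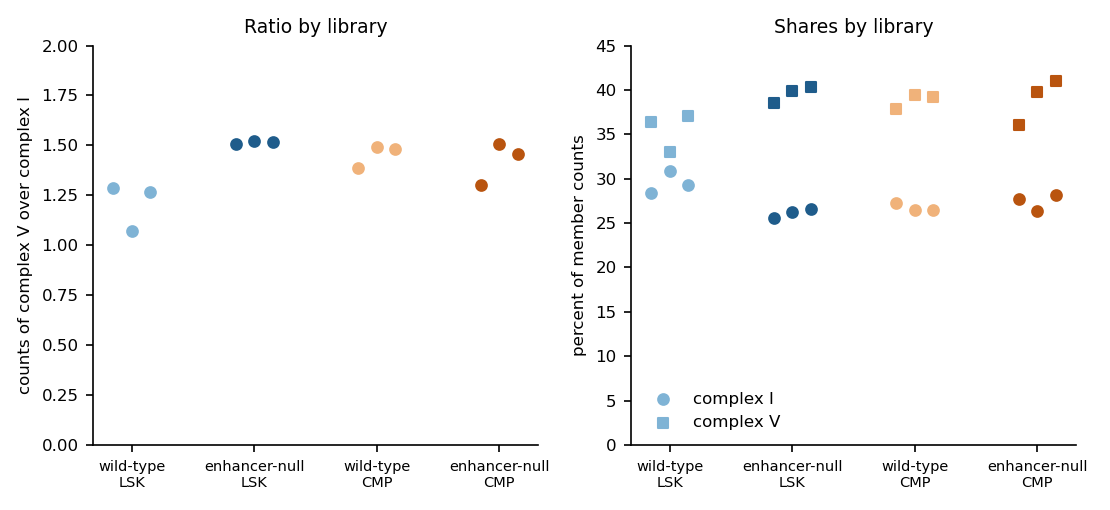
Counts of complex V genes over counts of complex I genes (left) and the percent of the members' counts in complexes I and V (right), with 1 point per library in each of the 4 groups. The enhancer-null LSK libraries sit at 1.51 to 1.52, above the wild-type LSK libraries at 1.07 to 1.28, while the CMP groups overlap.

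Around the chain, 0 genes of the mitochondrial lists were called in LSK by edgeR. Of 18 genes of the tricarboxylic acid cycle and pyruvate dehydrogenase 16 had a positive log2 fold change (median 0.31) and 3 were higher at an unadjusted p under 0.05, led by Idh2 (log2 fold change 0.66, edgeR adjusted p = 0.179). Slc25a5, the ADP/ATP carrier gene, stood at 998, 1278 and 1063 CPM in enhancer-null and 795, 854 and 961 CPM in wild-type LSK (0.39, 0.498).

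Across the cell types, 11 of 79 members were lower in the enhancer-null libraries without overlap in both CMP and LSK, and 0 were higher in both (281 and 257 of 12684 genes). By symbol, 6 of the 11 are placed in complex I (Ndufa4, Ndufa5, Ndufb7, Ndufb9, Ndufb10 and Ndufb11). The others are Sdhc of complex II, Uqcr10 and Uqcr11 of complex III, and Cox6a1 and Cox8a of complex IV. None is a gene of complex V. The Ndufb genes among them encode accessory subunits of the membrane arm of complex I. Uqcr11, a small subunit of complex III whose promoter is printed above, stood at 73.3, 79.3 and 59.9 against 125, 101 and 121 CPM in CMP and at 40.9, 55.8 and 47.0 against 60.9, 83.4 and 65.1 CPM in LSK. Ndufb10 stood at 71.0, 99.9 and 90.4 against 173, 133 and 116 CPM in CMP and 77.2, 87.2 and 68.6 against 100.1, 115 and 99.5 CPM in LSK. In both genes the group means were further apart, in CPM, in CMP. Over the 11, the log2 fold change ran from −0.71 to −0.51 in CMP and from −0.90 to −0.22 in LSK.

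**Figure D5:**
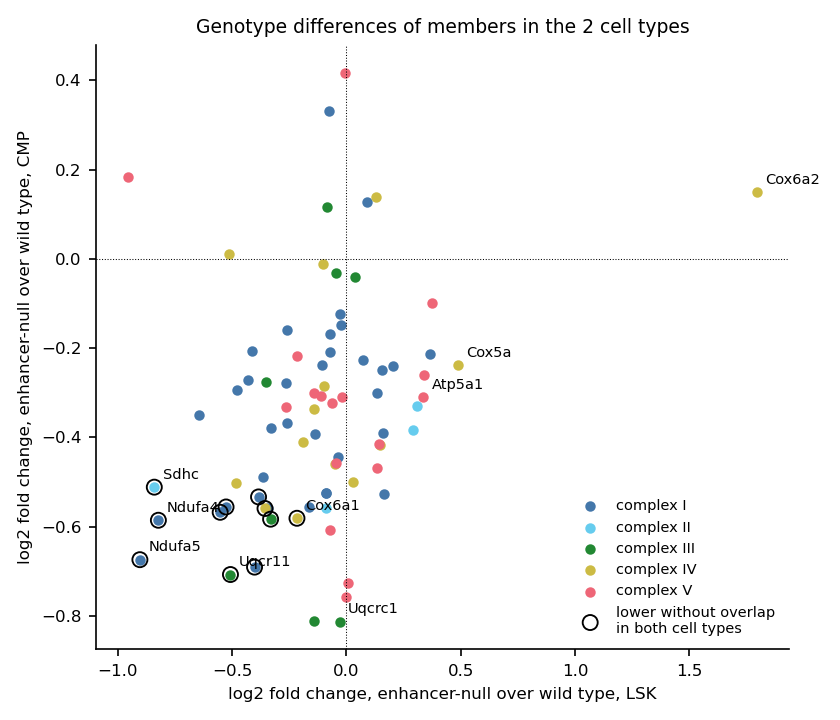
Log2 fold change between enhancer-null and wild type of each of the 78 members tested in both cell types, in LSK (x axis) and CMP (y axis), coloured by complex, with circles around the 11 members that were lower without overlap in both. Most points lie below 0 on the y axis, and Atp5a1 and Cox5a lie at the right, where LSK was higher and CMP lower.

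The test of the genotype effect in CMP minus that in LSK called 0 of 79 members in edgeR (0.292% of 12684 genes were called, 0.221% higher and 0.071% lower). At an unadjusted p under 0.05, 7 were lower and 0 higher (3.1% and 4.54% of all genes), and DESeq2 called 1, Atp5a1. The difference was negative for 56 members and positive for 23 (49.4% and 50.6% of all genes), with a median of −0.17 against 0.01 over all genes. Atp5a1 was lower in enhancer-null CMP and higher in enhancer-null LSK, each without overlap, as were 65 of all 12684 genes. Its difference of effects was −0.61 (SE 0.13, edgeR adjusted p = 0.107). It passed in edgeR when enhancer-null CMP library 2 was left out. Next came Cox5a (−0.69, SE 0.22, edgeR adjusted p = 0.385). The lowest differences were those of Cox6a2 (−1.60), Uqcrc1 (−0.75), Atp5o (−0.72) and Atp5k (−0.70), and the highest those of Atp5s (1.17), Cox4i2 (0.57), Atp5sl (0.46) and Ndufa6 (0.44), at edgeR adjusted p of 0.622 to 0.994. Atp5s and Cox4i2 turned sign in 1 and 4 of 19 alternatives. By complex the median difference was −0.09 in I, −0.52 in II, −0.10 in III, −0.18 in IV and −0.37 in V.

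Ordered by group means, wild-type CMP was highest for 63 of the 79 members (79.7%, against 27.2% of all genes), wild-type LSK for 10, enhancer-null CMP for 5 and enhancer-null LSK for 1. Enhancer-null LSK was lowest for 51 (64.6%, against 21.7% of all genes), wild-type LSK for 20, enhancer-null CMP for 6 and wild-type CMP for 2. Neighbours in this order often overlapped: of the 79 members, 32 differed without overlap between the CMP groups and 22 between the LSK groups.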

How the data were processed

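RNA-seq libraries of sorted mouse CMP and LSK were analysed from the deposited read counts per gene, 1 file per library. Per the labels' protocols, RNA was extracted with Trizol and a carrier, amplified with the SMARTer Ultra Low kit, sheared, and sequenced as paired 75-base reads from TruSeq libraries. These kits do not mark strand, so reads of overlapping genes cannot be told apart. Per the submitters' processing notes, the tools were TopHat2 2.0.4, TopHat, Bowtie and HTSeq with genome build mm10. No source used here gives their settings. Amplified reads are not independent molecules, and the floors given in CPM cover counting error only.

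Of the symbols, 22779 were identical in all files and 604 were linked through older names, since the file of wild-type CMP library 6 lists 23456 symbols and the other 11 files 24420. Rows that name no gene held 37.2% to 46.9% of the deposited counts and were left out. No 2 libraries of a group were alike within counting noise (chi-square per degree of freedom 43.1 to 183).

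Counts were tested with edgeR 4.0.16 in R 4.3.3 (quasi-likelihood F test with robust fit, TMM scaling, filterByExpr with a minimum count of 10, Benjamini-Hochberg adjustment over all genes tested, threshold 0.05) after the scripts were tested on simulated data. Each comparison of 2 groups used only their 6 libraries, and the genotype effect in CMP minus that in LSK used all 12. Levels are CPM scaled by TMM over the 12 libraries, per kb by the joined length of all GENCODE exons of a gene (GRCm38, the mm10 assembly). Groups were called apart where every library of one exceeded every library of the other. Alternatives were DESeq2 1.42.0, RLE scaling, library size alone, no filter, sex (read from the transcripts) as a covariate, a fit over all groups, a replicate block and each library left out.

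The members and lists were chosen with earlier results of these data known. Genes named with values were the members past the test, the 4 highest and 4 lowest fold changes in each comparison, tissue forms and copies, 2 core subunits a complex (all 4 of complex II), the 3 highest per kb in each complex, the members apart in both cell types, and from each further list the genes past the test or with the smallest p. Others are said to be chosen after their values were seen or are named where a count of 5 or fewer falls on them, and some genes that this rule takes are not reported here. Identity between subunit proteins was not analysed here.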

Additional observations from a re-analysis of the deposited data

Results flagged for a closer look

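Atp5a1, the alpha subunit of the ATP synthase head, was the 1 member whose libraries went opposite ways in the cell types, without overlap in either. Its levels were 936, 1042 and 976 CPM in enhancer-null and 1257, 1231 and 1171 CPM in wild-type CMP, and 899, 929.8 and 877 CPM in enhancer-null and 776, 737 and 679.8 CPM in wild-type LSK. The genotype effect in CMP minus that in LSK was −0.61 on the log2 scale, with an edgeR adjusted p of 0.107, and it ran from −0.77 to −0.59 over 19 alternatives with adjusted p of 4.5e-05 to 0.342. Among all 12684 genes, 65 were lower in CMP and higher in LSK without overlap and 73 the reverse, against 1 and 0 of the 79 members. The members thus did not stand out from all genes in this pattern, by which Atp5a1 was picked.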

How the results depend on the processing

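The number of members called varied with the tool and the libraries, while the member medians kept their sign in every alternative run. In wild-type CMP against LSK the 8 calls became 22 with DESeq2, 5 with library size alone, 5 with sex as a covariate, 1 with the replicate block, 0 without both wild-type libraries numbered 1, and 0 to 13 with single libraries left out. In enhancer-null against wild-type CMP the 0 calls became 4 with DESeq2 and 1 without a filter on low counts. In LSK, DESeq2 called 1, and for the genotype effect in CMP minus that in LSK it called 1, with 0 to 1 when single libraries were left out. Over all genes, DESeq2 against edgeR called 629 against 69 genes between the genotypes in CMP, 268 against 12 in LSK, 192 against 37 for the difference of effects, 1609 against 505 in the wild-type step and 205 against 0 in the enhancer-null step. The log2 ratio of summed levels in the enhancer-null step was 0.19 with library size alone and 0.26 with TMM. Signs were followed for the 52 values of named members, and turned for 4 members among them. Between the genotypes in CMP, Cox6a2 was −0.018 with sex as a covariate and ran from −1.24 to 0.68 with single libraries left out, and Atp5s from −0.52 to 0.74. For the difference of effects, Cox4i2 was −0.88 with sex as a covariate and −1.25 with the replicate block and ran from −1.63 to 1.07 with single libraries left out, and Atp5s was −0.48 with the replicate block. In the enhancer-null step, Cox6a2 ran from −1.55 to 0.36 and Cox7a2l from −0.67 to 0.027 with single libraries left out. The cause of these changes was not tested. Without the filter the median of all genes was −0.38 between the genotypes in CMP and 0.26 in the wild-type step, where the member medians were −0.36 and 0.52. Same-numbered CMP and LSK libraries correlated at −0.05 to 0.11 in their deviations from group means over all genes tested (−0.35 to 0.66 over the members alone). Of the 6 CMP libraries 4 correlated best with the LSK library of their own number. The sex read from the transcripts was the same within each same-numbered pair. The labels do not say whether a number stands for an animal. The main fits treated the libraries as unpaired, and the replicate block is the fit that pairs them. Over the alternatives, 147 values of the counts, medians and sums stayed within a set margin of the main value, and 17 moved beyond it. Of the values of single members, 649 kept their direction and side of the threshold, 58 lost their call and 8 gained one. With 3 libraries a group, the depth of the shallowest library sets a floor of 0.486 CPM, which bears on Cox4i2, Cox7a1, Cox8b, Cox8c and Ndufs5.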

Other observations

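Genes known to regulate respiratory gene transcription were not called in any comparison by edgeR. In enhancer-null against wild-type CMP, 0 of 19 tested were called and 2 were higher at an unadjusted p under 0.05. Nrip1, a corepressor of nuclear receptors, stood at 229.9, 157 and 289 CPM in enhancer-null CMP libraries 1, 2 and 7 and 56.5, 92.2 and 41.5 CPM in wild-type CMP libraries 1, 6 and 8, without overlap (log2 fold change 1.83, edgeR adjusted p = 0.0884). Gabpa, the ETS factor whose motif was searched in the promoters, stood at 342, 110.5 and 127 CPM against 85.5, 103 and 44.9 CPM, with enhancer-null library 1 far above the other libraries. Ppargc1b, a coactivator of mitochondrial genes, stood at 0, 4.48 and 3.47 CPM in enhancer-null and 8.95, 12.7 and 21.7 CPM in wild-type CMP (log2 fold change −2.44, edgeR adjusted p = 0.618). In the wild-type step 0 of 20 were called by edgeR, with 1 higher and 1 lower at an unadjusted p under 0.05, and the smallest adjusted p was that of Gabpb1, 0.111 (log2 fold change −0.70). Nrip1, Gabpa and Ppargc1b were named here after their values were seen.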
